A study of Mus musculus with 20 samples.

Results

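The genes described here encode enzymes that make asparagine, build and break down proline, move amino groups between amino acids and keto acids, draw on oxaloacetate, and turn homocysteine into cysteine. They were chosen by name: Asns, Aldh18a1, Pycr1, Prodh, Gpt2, Got1, Pck2, Cth and Cbs. A gene was measured where the RefSeq accession of a non-control probe maps to its symbol. This held for 8 of the 9 genes, out of 24250 genes and transcripts tested on the array. No accession on the array matched Pycr1, which is not analysed here. Cth had 2 probes, Pck2 had 1 probe printed at 10 spots, and each of the other genes had 1 probe at 1 spot. The 8 genes were well above background in all 20 samples, and no spot of theirs was saturated.

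The samples were mouse embryonic fibroblasts of a Balb/c background, which are connective tissue cells grown from embryos. The treated groups received actinonin at 150 µM for 6, 24, 48 or 72 h, and the control group received its carrier, ethanol, at 3 µl/ml. Actinonin is an antibiotic of bacterial origin known as an inhibitor of peptide deformylase, an enzyme that mitochondria share with bacteria. All groups grew in medium with foetal bovine serum and uridine. Uridine spares cells the need to make pyrimidines, a step that depends on the respiratory chain. Each group held 4 samples, 2 labelled with Cy3 and 2 with Cy5, and each sample pooled RNA of 4 plates. The labels give the control a time of 0 h and do not say how long it stayed in culture, so time in culture and actinonin cannot be told apart. The 20 samples were hybridised in pairs to 10 arrays. Slide 1 carried 2 of the 4 controls and 2 of the 4 samples of 6 h. All the rest, and so every sample of 24, 48 and 72 h, was on slide 2. On array 7, 70.5% of spots were well above background for a 48 h sample (Cy5 sample 2) and 66.4% for a control (Cy3 sample 2). On the other arrays the share was between 50.8% and 58.7%.

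All 10 fibroblast markers were well above background in every sample. Of markers of other cells, 3 of 5 macrophage and leukocyte genes (Cd14, Itgam and Csf1r), 2 of 4 endothelial genes (Pecam1 and Kdr) and 1 of 6 epithelial genes (Krt14) were also well above background in every sample. None of 3 muscle or 3 hepatocyte genes was. The leukocyte gene Ptprc, the epithelial gene Krt8, the endothelial gene Cdh5, the muscle gene Myog and the hepatocyte genes Alb, Ttr and Afp were well above background in no sample. The summed signal of the fibroblast markers was 749900 to 1068000 after 6 h, 764700 to 933500 after 24 h, 574800 to 858900 after 48 h and 812900 to 969900 after 72 h, against 885400 to 1214000 in the controls. By the test described below, 2 of the 10 fell at 6 h, 8 at 24 h, 9 at 48 h and 7 at 72 h. Of all genes tested, 11.1%, 19.1%, 20.3% and 22.6% fell at these times. Fn1, a fibroblast marker, rose at 72 h (0.37, adjusted p = 0.000789). The summed signal of the macrophage and leukocyte genes was 31120 to 44230 after 6 h, 33240 to 34970 after 24 h, 35280 to 41760 after 48 h and 34280 to 37880 after 72 h, against 32220 to 46000 in the controls. Cd14 fell at 24, 48 and 72 h (-0.71, -0.96 and -1.35) and Itgam at 24 and 72 h (-0.37 and -0.25). Pecam1 fell at 24 and 72 h (-0.22 and -0.17) and Kdr at 24 h (-0.26). The part of these shifts in the results below was not tested. In such bulk RNA, fewer cells of a kind and less of a transcript per cell cannot be told apart.

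Asparagine synthetase, the product of Asns, moves an amino group from glutamine onto aspartate. Aspartate itself comes from oxaloacetate through the transaminases, and proline is made from glutamate in mitochondria through pyrroline-5-carboxylate. In transsulfuration, cystathionine beta-synthase (Cbs) joins homocysteine and serine, and cystathionine gamma-lyase (Cth) splits the product to release cysteine. Several of these genes are known as targets of ATF4, a transcription factor made when cells phosphorylate the translation factor eIF2 alpha. ATF4 pairs with C/EBP proteins on a composite element whose core can be written TGATGNAA, described in genes such as Asns.

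Promoters, taken as 250 bases before to 50 bases after the annotated gene start, were listed in RefSeq (GRCm38.p6) for 8 of the 9 genes, all but Cth. The core TGATGNAA was looked for on both strands, and 4 of these 8 promoters held it: Asns, Pycr1, Got1 and Pck2. It is present in 1273 of all 32544 mouse promoters of the same length, or 3.91%. The Aldh18a1, Prodh, Gpt2 and Cbs promoters had no match in this window. The windows of 140 bases before the start of the 3 measured genes with a match are shown because they let the sites be compared. Each is written 5′ to 3′ along the gene's own strand and ends just before the start used in the promoter table, and capitals mark the match. For Pck2 the gene record opens at 55540263, so the last 3 bases of its window lie inside that record. The windows are chr6:7693210-7693349 on the minus strand for Asns, chr19:43524606-43524745 on the minus strand for Got1 and chr14:55540126-55540265 on the plus strand for Pck2.
Asns: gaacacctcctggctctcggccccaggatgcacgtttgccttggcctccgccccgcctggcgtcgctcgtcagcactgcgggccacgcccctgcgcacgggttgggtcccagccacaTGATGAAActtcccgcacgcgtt
Got1: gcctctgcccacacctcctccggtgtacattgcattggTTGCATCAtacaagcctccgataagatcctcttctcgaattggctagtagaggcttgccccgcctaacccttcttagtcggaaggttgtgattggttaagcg
Pck2: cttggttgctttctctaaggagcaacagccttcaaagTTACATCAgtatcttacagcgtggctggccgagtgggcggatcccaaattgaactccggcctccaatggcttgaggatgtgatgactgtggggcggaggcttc
In Asns the match lies on the gene's own strand at bases -23 to -16 from the start used in the promoter table, counted with the first base before the start as -1. In Got1 it lies on the opposite strand at -102 to -95, and in Pck2 on the opposite strand at -103 to -96. A match is a run of letters, and binding was not measured.

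Values below are log2 signals with the fitted dye and slide terms removed, on the scale of slide 2. Samples of a group are given in the order Cy3 sample 1, Cy3 sample 2, Cy5 sample 1, Cy5 sample 2. In the control group both samples numbered 1 lay on slide 1, and in the 6 h group Cy3 sample 2 and Cy5 sample 1 did. Signals of different probes are not compared, since their brightness differs. Changes are log2 differences, actinonin minus carrier, ± their standard error, with n = 4 per group, from limma fitted over all 20 samples, with p-values adjusted by Benjamini-Hochberg across the whole array. A gene was called at an adjusted p under 0.05.

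At 6 h, 6 of the 8 genes rose and 0 fell, beside 13.7% of all genes tested that rose and 11.1% that fell. The 6 were Asns, Aldh18a1, Gpt2, Got1, Pck2 and Cth, and they were called up again at 24, 48 and 72 h. At 24 h the count was 6 up and 0 down, beside 21.1% and 19.1% of all genes. At 48 h it was 7 up and 1 down, beside 21.5% and 20.3%, with Prodh as the seventh rise and Cbs as the fall. At 72 h it was 6 up and 0 down, beside 25.1% and 22.6%. The median change of the 8 genes was 0.83, 0.58, 0.80 and 0.74 at 6, 24, 48 and 72 h, while that of all genes tested lay between -0.0011 and 0.0071. All 4 treated values of each of the 6 genes lay above all 4 control values at every time, beside 22.9%, 44.1%, 37.9% and 49.9% of all genes whose groups did not overlap in either direction at 6, 24, 48 and 72 h. Before the dye and slide terms were removed, treated and control values overlapped for Asns at 24 h and for Aldh18a1 at 6 h.

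**Figure D1:**
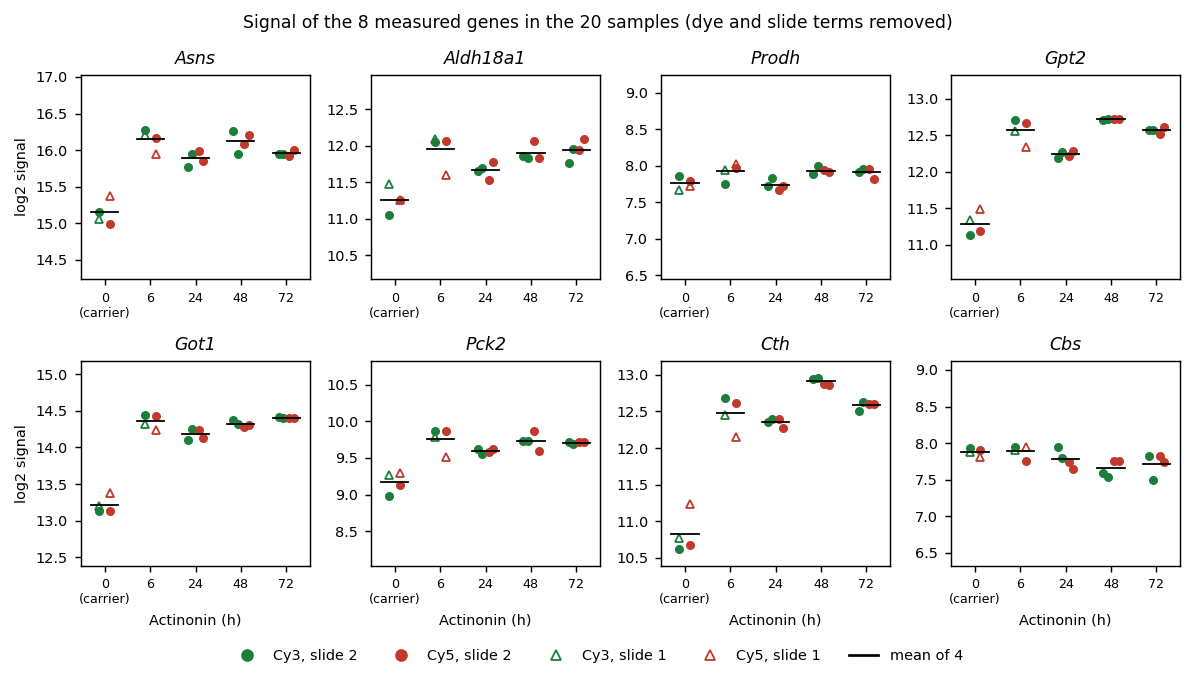
Log2 signal of each of the 8 genes in the 20 samples, with dye and slide terms removed, by hours of actinonin (0 is the carrier). Each point is 1 sample, colour gives the dye, open triangles lie on slide 1, bars are the mean of 4, and each panel has its own range of values of the same height. For Asns, Aldh18a1, Gpt2, Got1, Pck2 and Cth every treated point lies above every carrier point, while the points of Prodh and Cbs lie close to their carrier values.

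Cth changed the most of the 8. Its signal was 10.77, 10.62, 11.23 and 10.68 in the controls, 12.68, 12.45, 12.16 and 12.62 after 6 h, 12.35, 12.40, 12.40 and 12.27 after 24 h, 12.94, 12.96, 12.88 and 12.86 after 48 h, and 12.51, 12.62, 12.61 and 12.60 after 72 h. The 48 h samples were the highest, and the gap between the lowest treated and the highest control sample was wider than the spread within any group. It was 3.06-fold higher at 6 h (log2 change 1.61 ± 0.11, adjusted p = 7.42e-09), 2.84-fold at 24 h (1.51 ± 0.13, adjusted p = 4.96e-08), 4.19-fold at 48 h (2.07 ± 0.11, adjusted p = 1.37e-10) and 3.34-fold at 72 h (1.74 ± 0.13, adjusted p = 4.16e-09). By size of rise it stood 15th of the 24250 genes and transcripts at 6 h, 57th at 24 h, 23rd at 48 h and 71st at 72 h. The mean over both Cth probes gave changes of 1.59, 1.47, 2.03 and 1.70 at the 4 times.

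Cbs, which acts one step before Cth, was called up at no time. Its signal was 7.87, 7.93, 7.81 and 7.90 in the controls, 7.95, 7.90, 7.94 and 7.75 after 6 h, 7.95, 7.79, 7.74 and 7.64 after 24 h, 7.60, 7.53, 7.76 and 7.76 after 48 h, and 7.83, 7.50, 7.82 and 7.74 after 72 h. Treated and control values overlapped at 6, 24 and 72 h, and the 4 values of 48 h lay below all controls. The change was 0.02 ± 0.07 at 6 h (95% interval -0.13 to 0.17, adjusted p = 0.898), -0.09 ± 0.09 at 24 h (-0.27 to 0.09, adjusted p = 0.416) and -0.15 ± 0.09 at 72 h (-0.33 to 0.03, adjusted p = 0.150). At 48 h it fell to 0.863 of the control level (log2 change -0.21 ± 0.08, adjusted p = 0.0322). That call was lost in 4 of the 8 fits that left out 1 sample: without control Cy3 sample 2 (adjusted p = 0.128) or Cy5 sample 2 (0.143), and without 48 h Cy3 sample 1 (0.105) or Cy3 sample 2 (0.0890). The Cbs probe is dim, and the constant added in background correction shrinks its folds.

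The transaminases followed Cth in size. Gpt2 encodes the mitochondrial enzyme that passes amino groups between alanine and glutamate. Its signal was 11.33, 11.13, 11.48 and 11.19 in the controls, 12.71, 12.56, 12.33 and 12.67 after 6 h, 12.19, 12.27, 12.22 and 12.28 after 24 h, 12.70, 12.72, 12.72 and 12.72 after 48 h, and 12.57, 12.56, 12.52 and 12.62 after 72 h. The 4 samples of 24 h were the lowest of the treated ones, and the 48 h samples were nearly equal. Gpt2 was 2.39-fold higher at 6 h (1.25 ± 0.07, adjusted p = 1.92e-09), 1.92-fold at 24 h (0.94 ± 0.09, adjusted p = 1.66e-07), 2.67-fold at 48 h (1.42 ± 0.08, adjusted p = 1.41e-10) and 2.41-fold at 72 h (1.27 ± 0.09, adjusted p = 1.95e-09).

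Got1 encodes the cytosolic aspartate transaminase, which interconverts aspartate and oxaloacetate. Its signal was 13.20, 13.13, 13.37 and 13.14 in the controls, 14.44, 14.32, 14.24 and 14.44 after 6 h, 14.11, 14.26, 14.24 and 14.13 after 24 h, 14.38, 14.32, 14.28 and 14.31 after 48 h, and 14.42, 14.40, 14.41 and 14.41 after 72 h. The treated samples of all 4 times fell in a narrow band well above the controls. It was 2.19-fold higher at 6 h (1.13 ± 0.06, adjusted p = 3.72e-10), 1.96-fold at 24 h (0.97 ± 0.07, adjusted p = 5.79e-09), 2.152-fold at 48 h (1.11 ± 0.06, adjusted p = 1.60e-10) and 2.28-fold at 72 h (1.19 ± 0.07, adjusted p = 2.09e-10).

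Asns had a signal of 15.06, 15.16, 15.38 and 15.00 in the controls, 16.27, 16.21, 15.94 and 16.16 after 6 h, 15.77, 15.95, 15.99 and 15.85 after 24 h, 16.26, 15.95, 16.08 and 16.21 after 48 h, and 15.95, 15.94, 15.92 and 16.0025 after 72 h. The treated samples lay above all controls and the treated groups overlapped one another. Asns was 2.01-fold higher at 6 h (1.01 ± 0.08, adjusted p = 9.53e-08), 1.68-fold at 24 h (0.75 ± 0.10, adjusted p = 1.01e-05), 1.97-fold at 48 h (0.98 ± 0.09, adjusted p = 7.20e-08) and 1.75-fold at 72 h (0.81 ± 0.10, adjusted p = 2.38e-06).

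Aldh18a1 encodes pyrroline-5-carboxylate synthase, which commits glutamate to proline and ornithine. Its signal was 11.47, 11.05, 11.26 and 11.26 in the controls, 12.05, 12.09, 11.60 and 12.07 after 6 h, 11.66, 11.70, 11.53 and 11.78 after 24 h, 11.86, 11.83, 12.07 and 11.83 after 48 h, and 11.77, 11.96, 11.94 and 12.09 after 72 h. The lowest 24 h sample lay just above the highest control, the closest approach of treated and control values among the 6 genes. It was 1.58-fold higher at 6 h (0.66 ± 0.10, adjusted p = 0.000130), 1.31-fold at 24 h (0.39 ± 0.13, adjusted p = 0.0190), 1.54-fold at 48 h (0.62 ± 0.11, adjusted p = 0.000184) and 1.58-fold at 72 h (0.66 ± 0.13, adjusted p = 0.000254). The call at 24 h was lost without control Cy3 sample 2 (0.26, adjusted p = 0.159), without control Cy5 sample 2 (0.38, adjusted p = 0.0611) and without 24 h Cy5 sample 2 (0.35, adjusted p = 0.0528).

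Prodh encodes proline dehydrogenase, the first enzyme of proline breakdown. Its signal ranged over 7.67 to 7.86 in the controls, 7.75 to 8.03 after 6 h, 7.66 to 7.83 after 24 h, 7.88 to 7.99 after 48 h and 7.82 to 7.96 after 72 h. Only the 48 h group did not overlap the controls, and before the dye and slide terms were removed it overlapped them too. The fitted Prodh dye term, Cy5 minus Cy3, was 0.20 (adjusted p = 0.000538). Within arrays, 48 h minus control was 0.25 on array 7, with 48 h in Cy5, and -0.12 on array 10, with 48 h in Cy3. The Prodh probe is dim too, and the constant added in background correction shrinks its folds. The change was 0.17 ± 0.06 at 6 h (adjusted p = 0.0561), -0.02 ± 0.07 at 24 h (adjusted p = 0.829) and 0.15 ± 0.07 at 72 h (adjusted p = 0.107). At 48 h Prodh rose by 0.17 ± 0.07 (1.13-fold, adjusted p = 0.0434). On slide 2 alone this was 0.09 ± 0.06 (adjusted p = 0.258), and 5 of the 8 fits that left out 1 sample lost the call: control Cy3 sample 1 (adjusted p = 0.0808), Cy5 sample 1 (0.0687) or Cy5 sample 2 (0.0603), and 48 h Cy3 sample 2 (0.0976) or Cy5 sample 1 (0.102). At 6 h a call appeared without control Cy3 sample 2 (adjusted p = 0.0276) or 6 h Cy3 sample 1 (0.00484), and at 72 h without control Cy3 sample 2 (0.0450) or 72 h Cy5 sample 2 (0.0480). Prodh was also called up at 6 h with quantile scaling (adjusted p = 0.0364), in the authors' series matrix (0.0436) and without array 7 (0.0338), and at 72 h without array 7 (0.0467).

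Pck2 encodes the mitochondrial phosphoenolpyruvate carboxykinase, which turns oxaloacetate into phosphoenolpyruvate. Its signal ranged over 8.98 to 9.30 in the controls, 9.52 to 9.87 after 6 h, 9.55 to 9.62 after 24 h, 9.60 to 9.87 after 48 h and 9.69 to 9.72 after 72 h. No treated sample reached down to the controls. Its rise was the smallest estimate of the 6 at 6, 48 and 72 h: 0.55 ± 0.07 at 6 h (1.46-fold, adjusted p = 2.29e-05), 0.40 ± 0.09 at 24 h (1.32-fold, adjusted p = 0.00123), 0.55 ± 0.08 at 48 h (1.46-fold, adjusted p = 1.58e-05) and 0.52 ± 0.09 at 72 h (1.44-fold, adjusted p = 8.09e-05).

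**Figure D2:**
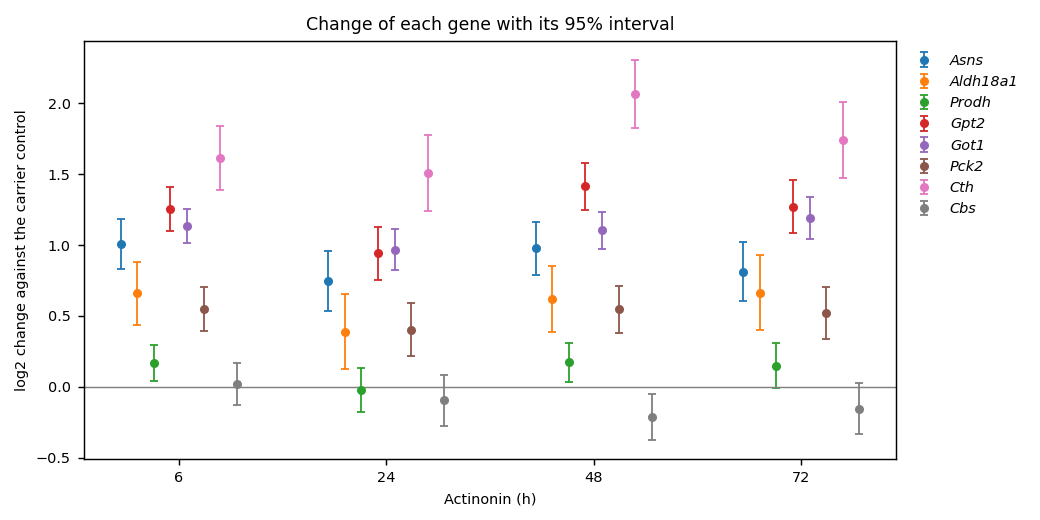
Log2 change of each gene against the carrier control at 6, 24, 48 and 72 h of actinonin, with its 95% interval from the fit over 20 samples. The intervals of Cth, Gpt2, Got1, Asns, Aldh18a1 and Pck2 lie above 0 at all 4 times, with Cth at the top, and those of Prodh and Cbs lie near 0.

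For 3 of the enzymes a counterpart in the other compartment or the preceding step was measured, and the difference between both genes was compared between groups. The pairs were chosen with the changes of the enzymes known, so these differences are given without a test. Got1 minus Got2, the mitochondrial aspartate transaminase gene, was higher than in the controls by 1.23, 0.99, 1.24 and 1.17 at 6, 24, 48 and 72 h. Gpt2 minus Gpt, the cytosolic alanine transaminase gene, was higher by 1.37, 1.21, 1.51 and 1.55. Cth minus Cbs was higher by 1.65, 1.63, 2.30 and 1.92. Got2 itself was called at no time (-0.07, -0.01, -0.13 and 0.03, adjusted p = 0.332, 0.932, 0.0620 and 0.677). Gpt fell at 24 h (-0.25 ± 0.06, adjusted p = 0.00207) and 72 h (-0.26 ± 0.06, adjusted p = 0.00105) and was not called at 6 h (-0.08, adjusted p = 0.2998) or 48 h (-0.08, adjusted p = 0.249). Pck1, the cytosolic counterpart of Pck2, was too dim to be tested.

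Only controls and 6 h samples lay on both slides, so the change at 6 h was also fitted on each slide, with 2 samples per group. On slide 1 both groups shared arrays 1 and 2. On slide 2 they shared no array, with the 6 h samples on arrays 3 and 6 and the controls on arrays 7 and 10. On slide 2 the change was 1.99 for Cth, 1.53 for Gpt2, 1.31 for Got1, 1.19 for Asns, 0.88 for Aldh18a1 and 0.78 for Pck2. On slide 1 it was smaller for each of the 6: 1.31 for Cth, 1.04 for Gpt2, 0.99 for Got1, 0.86 for Asns, 0.48 for Aldh18a1 and 0.37 for Pck2. The slide by 6 h interaction was past the threshold for 0 of the 8 genes and for 0.0289% of all genes tested. By unadjusted p under 0.05 it was past for 6 of the 8, beside 4.67% of all genes. These were Asns, Gpt2, Got1, Pck2 and Cth, with the smaller change on slide 1, and Prodh, with the larger change on slide 1. For Prodh the change was 0.29 on slide 1 and 0.015 on slide 2, an interaction of 0.27. The interaction of Aldh18a1 was not past (-0.40, unadjusted p = 0.0537). The largest were Cth at -0.69 ± 0.14 (slide 1 minus slide 2, adjusted p = 0.181) and Gpt2 at -0.49 ± 0.09 (adjusted p = 0.0879). Gpt2 passed with quantile scaling over all channels (-0.55, adjusted p = 0.0351) and Cth with the mean of its probes (-0.73, adjusted p = 0.0464). From slide 1 alone, with 4 samples, none of the 8 was called, beside 0.0866% of all genes. From slide 2 alone 6 of the 8 rose at 6 h, beside 10.6% of all genes. At 24, 48 and 72 h the same 6 rose from slide 2 alone, beside 22.1%, 22.5% and 25.5%, Cth by 1.70, 2.26 and 1.93.

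**Figure D3:**
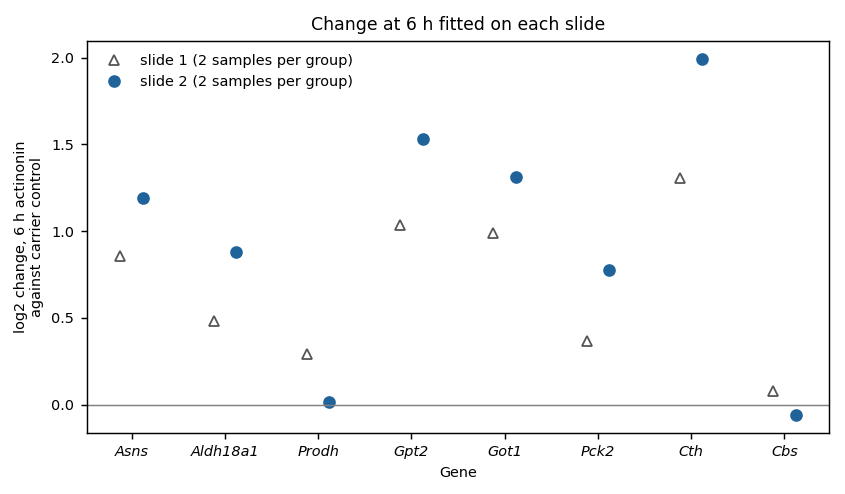
Log2 change of each gene after 6 h of actinonin against the carrier control, fitted on slide 1 (open triangles) and slide 2 (filled circles), with 2 samples per group on each. Asns, Aldh18a1, Gpt2, Got1, Pck2 and Cth are above 0 on both slides and higher on slide 2, and the slides differ most for Cth (1.31 on slide 1 and 1.99 on slide 2).

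The treated groups were also compared in time order. Between 24 h and 6 h, 1 of the 8 genes was called down and 0 up, beside 16.4% of all genes in each direction. That gene was Gpt2 (-0.31 ± 0.09, adjusted p = 0.0102), and its call was lost without 6 h Cy3 sample 1 (-0.22, adjusted p = 0.107) or Cy5 sample 2 (-0.24, adjusted p = 0.0854). Asns differed by -0.26 ± 0.10 (adjusted p = 0.0532) and Got1 by -0.17 ± 0.07 (adjusted p = 0.0773). Without 6 h Cy5 sample 1, from slide 1, 5 of the 8 were called down, beside 16.9% of all genes: Gpt2, Aldh18a1 (-0.36), Asns (-0.31), Got1 (-0.19) and Pck2 (-0.20). On slide 2 alone, with 2 samples of 6 h and 4 of 24 h, 6 of the 8 were called down, beside 16.8% of all genes: Gpt2 (-0.45), Aldh18a1 (-0.38), Asns (-0.36), Cth (-0.29), Got1 (-0.26) and Pck2 (-0.25). For these 6 genes the difference had the same sign in the full fit and on slide 2, and the number called differed between both.

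Between 48 h and 24 h, groups that both lay wholly on slide 2, 2 of the 8 rose and 0 fell, beside 5.72% and 6.33% of all genes. Gpt2 was higher at 48 h by 0.47 ± 0.08 (adjusted p = 0.00114) and Cth by 0.56 ± 0.12 (adjusted p = 0.00543), and the values of both groups did not overlap, as for 22.1% of all genes in either direction. With slide 2 samples alone in the fit, 6 rose, beside 8.13% of all genes, with Aldh18a1 (0.23), Asns (0.23), Got1 (0.14) and Prodh (0.20) added. Between 72 h and 48 h none of the 8 was called, beside 12.8% of all genes up and 10.3% down. By unadjusted p under 0.05 there was 1, Cth, at -0.33 ± 0.12 (adjusted p = 0.0532). On slide 2 alone Cth (-0.33, adjusted p = 0.000197) and Gpt2 (-0.15, adjusted p = 0.00896) fell, beside 13% of all genes. For Aldh18a1 the interval of the difference between 72 h and 48 h was -0.20 to 0.29, and for Pck2 it was -0.19 to 0.14.

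The 24 h and 72 h samples shared 4 arrays, on which their difference can be read within an array, with 72 h in Cy3 on 2 of them and in Cy5 on 2, and the dye term not removed. In 72 h minus 24 h, Gpt2 was 0.47, 0.21, 0.23 and 0.40, Cth 0.24, 0.13, 0.08 and 0.48, and Got1 0.16, 0.31, 0.16 and 0.25 on arrays 4, 5, 8 and 9. Aldh18a1 was 0.20, 0.32, 0.43 and 0.14. These 4 genes and Prodh were higher at 72 h on 4 of 4 arrays, and Asns on 3 of 4, at -0.04, 0.16, 0.06 and 0.09. Pck2 was higher on 3 of 4, at 0.0027, 0.23, 0.30 and -0.06, and Cbs was lower on 3 of 4, at 0.07, -0.11, -0.04 and -0.16. Of all genes measured on the 4 arrays, 16% were higher and 15.6% lower at 72 h on 4 of 4.

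Other genes of the same pathways were read from lists that do not hold the 8. The counts of this list and those that follow stand beside the shares of all genes tested that rose and fell. These were 13.7% and 11.1% at 6 h, 21.1% and 19.1% at 24 h, 21.5% and 20.3% at 48 h, and 25.1% and 22.6% at 72 h. Of 11 tested genes around asparagine, aspartate and glutamate, 2 rose and 2 fell at 6 h, 2 and 2 at 24 h, 2 and 3 at 48 h, and 3 and 4 at 72 h. The median change was -0.07, -0.01, -0.08 and 0.02. Gls2, whose product is a glutaminase that releases glutamate from glutamine, fell at 24, 48 and 72 h, most at 72 h (-0.76 ± 0.06, adjusted p = 9.68e-09). Glul, which makes glutamine, fell at 6 h (-0.31 ± 0.05, adjusted p = 0.000102), 48 h (-0.18) and 72 h (-0.14). Glud1, glutamate dehydrogenase, fell at 6 h (-0.21 ± 0.04). Aspg, whose product is an asparaginase, fell at 48 h (-0.22 ± 0.08) and 72 h (-0.23 ± 0.09). Ass1, which uses aspartate to make argininosuccinate, rose at 24 h (0.32), 48 h (0.23) and 72 h (0.46 ± 0.10, adjusted p = 0.000977). Nat8l, which makes N-acetylaspartate, was called up at 6 and 72 h but was well above background in none of the 4 samples of 6 h and in 2 of the 4 of 72 h.

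Of 10 tested genes of proline and ornithine metabolism, 1 rose and 3 fell at 6 h, 2 and 4 at 24 h, and 3 and 3 at both 48 h and 72 h. The median change was -0.03, -0.16, -0.01 and 0.07. The fall of Oat, ornithine aminotransferase, which links ornithine to the same intermediate that Aldh18a1 makes, was called at all 4 times (-0.23 ± 0.04, -0.50 ± 0.05, -0.40 ± 0.05 and -0.40 ± 0.05). Aldh4a1, which follows Prodh in proline breakdown, fell at 6 h (-0.22 ± 0.05, adjusted p = 0.00550). P4ha3, a subunit of the enzyme that hydroxylates proline in collagen, fell at 24 h (-0.96 ± 0.08), 48 h (-0.81 ± 0.08) and 72 h (-0.84 ± 0.08), alongside a fall of the collagen markers Col1a1 (-1.46 at 48 h) and Col1a2 (-1.02 at 48 h). P4ha1, another subunit of that enzyme, fell at 6 h (-0.29 ± 0.06, adjusted p = 0.00271), was not called at 24 h (-0.17) or 48 h (0.15), and rose at 72 h (0.56 ± 0.08, adjusted p = 8.01e-06). Hoga1, which acts late in hydroxyproline breakdown, rose at 24, 48 and 72 h (0.52, 0.22 and 0.50). Pepd, which frees proline from dipeptides, rose at 24, 48 and 72 h (0.41, 0.30 and 0.26), and Odc1, which uses ornithine for polyamines, at 6 h (0.36 ± 0.06) and 48 h (0.20 ± 0.06). Prodh2 was well above background in at most 2 samples of any group and was called at no time, and Pycr3 was not analysed here.

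Of 20 tested genes of methionine, transsulfuration and cysteine use, 5 rose and 3 fell at 6 h, 11 and 2 at 24 h, 8 and 3 at 48 h, and 11 and 4 at 72 h. The median change was 0.05, 0.21, 0.14 and 0.25. Chac1, whose product degrades glutathione, rose by 1.80 ± 0.07 at 6 h (adjusted p = 1.16e-11), 1.42 ± 0.08 at 24 h, 1.65 ± 0.07 at 48 h and 1.17 ± 0.08 at 72 h. Gclc, the catalytic subunit of the first enzyme of glutathione synthesis, rose at all 4 times (0.35 ± 0.05, 0.62 ± 0.06, 0.46 ± 0.05 and 0.66 ± 0.06). Cdo1, which oxidises cysteine, fell at all 4 times and most at 48 h (-0.24 ± 0.07, -0.56 ± 0.09, -0.87 ± 0.08 and -0.46 ± 0.09). Csad, which acts on a product of cysteine oxidation on the way to taurine, fell at 6 h (-0.23 ± 0.04) and rose at 24 h (0.19 ± 0.05) and 72 h (0.44 ± 0.05). Of the genes that return homocysteine to methionine, Mtr rose at 24, 48 and 72 h (0.47, 0.38 and 0.42) and Mtrr at 6, 24 and 72 h (0.35, 0.42 and 0.24). Sqor, which oxidises hydrogen sulfide in mitochondria, rose at 24, 48 and 72 h (0.56, 0.49 and 0.53).

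Of 13 tested genes around oxaloacetate, malate and pyruvate, 3 rose and 5 fell at 6 h, 2 and 6 at 24 h, 3 and 7 at 48 h, and 3 and 6 at 72 h. The median change was -0.10, -0.13, -0.24 and -0.06. Mdh1, the cytosolic malate dehydrogenase, which uses the oxaloacetate that Got1 yields, fell at all 4 times (-0.27 ± 0.06, -0.38 ± 0.07, -0.57 ± 0.07 and -0.41 ± 0.07). Slc25a1, the mitochondrial citrate carrier, fell at 6 h (-0.37 ± 0.05). Slc25a13, a mitochondrial carrier that exports aspartate in exchange for glutamate, fell at all 4 times (-0.29, -0.54, -0.51 and -0.58). Of the malic enzyme genes, which convert malate to pyruvate, Me1 rose at all 4 times (0.15, 0.38, 0.26 and 0.39), as did Me3 (0.31, 0.37, 0.65 and 0.70), while Me2 fell at 24, 48 and 72 h (-0.22, -0.30 and -0.43). Pkm, which makes pyruvate from phosphoenolpyruvate, fell at all 4 times (-0.22, -0.53, -0.55 and -0.46).

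**Figure D4:**
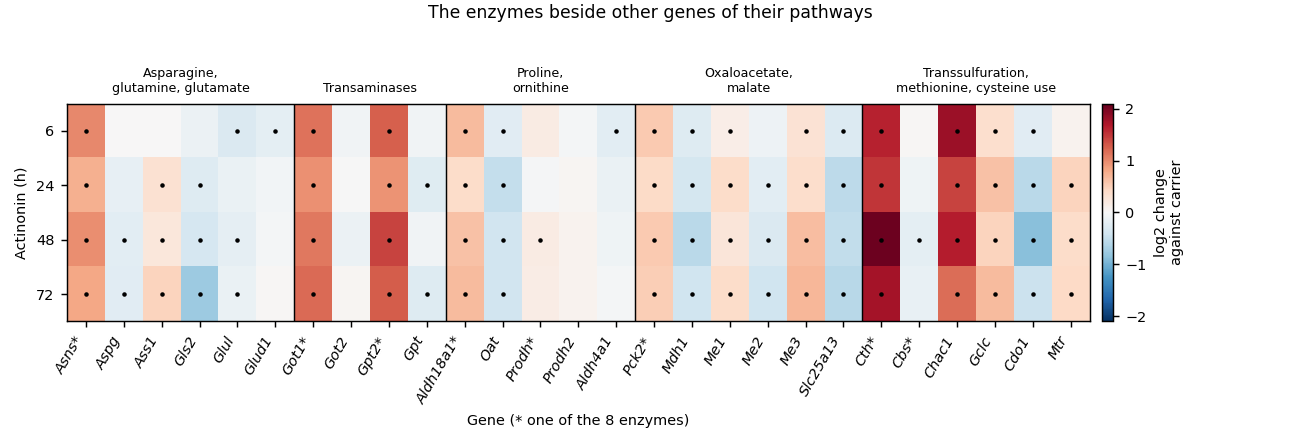
Log2 change against the carrier control at 6, 24, 48 and 72 h (rows) for 8 enzymes, marked by asterisks, and other genes of their pathways (columns). Colour gives the change, and a dot marks an adjusted p under 0.05. Asns, Got1, Gpt2, Aldh18a1, Pck2, Cth and Chac1 carry dots and red in all 4 rows. The neighbours Gclc, Me1 and Me3 also rise with dots in all 4 rows, while others such as Got2, Oat and Mdh1 are near 0 or blue.

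Among 14209 other named genes, those whose 20 values correlated best with each enzyme were listed, as a description over samples that share arrays and groups. For Asns they were Gars (Pearson r = 0.979), Psph (0.978) and Trib3 (0.974). For Got1 they were Slc7a11 (0.987), Ppp1r15a (0.983) and Trib3 (0.982), for Pck2 Slc7a11 (0.959), Shmt2 (0.959) and Nars (0.954), and for Gpt2 Cpox (0.986), Slc7a11 (0.979) and Nnmt (0.979). For Cth they were Hax1 (0.986), Zbtb18 (0.978) and Dnaja3 (0.976), and for Aldh18a1 Cdyl (0.932), Dpf2 (0.932) and Eif3g (0.928). The cystine transporter gene Slc7a11 was thus among the 3 genes most like Got1, Pck2 and Gpt2. The best r was lower for Cbs (Mymk, 0.861) and Prodh (Kif5b, 0.745). Without the 2 samples farthest from the enzyme's median the r was 0.978 for Got1 with Slc7a11 and 0.961 for Asns with Gars. It dropped further for other pairs, to 0.912 for Pck2 with Shmt2, 0.869 for Aldh18a1 with Eif3g and 0.656 for Prodh with Kif5b.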

How the data were processed

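Total RNA of 20 samples was labelled and read on 10 two-colour Agilent arrays, 1 sample per channel. The deposited intensity values are, per the file headers, median spot and local background brightness, not normalized, from Agilent Feature Extraction 10.7.3.1 (slide 1) and 11.0.1.1 (slide 2). Slide therefore coincides with scan and software version. Detection, saturation and outlier marks were deposited by the authors too. The authors' deposited series matrix holds normalized log2 values. R 2.15 and limma are listed, with no role, in the submitters' processing notes. The array annotation is on mm9, per the file headers.

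Background was corrected by normexp with an offset of 50, followed by loess within and Aquantile scaling between arrays, in R 4.3.3 with limma 3.58.1. A change shared by most genes would be lost in these steps. Control spots (3671 of 62976) were dropped and spots of a probe averaged. Of 28116 probes with a RefSeq accession, 26582 were named through a RefSeq table of GRCm38.p6. Probes detected well above background in fewer than 4 of the 20 samples were dropped, and a gene was read from its brightest probe. This left 24250 genes and transcripts, 14242 of them named. Each was fitted with group, dye and slide terms and the array as a random block (correlation 0.249; 13 residual and 4.48 prior degrees of freedom). Dye and slide terms were past the threshold for 6393 and 10470 genes. Moderated tests were two-sided, with Benjamini-Hochberg adjustment over the 24250. The labels call the 4 samples of a group independent and say no more of the cultures, so the p-values reflect only the spread among them, which may be technical. Precision is limited by the number of arrays.

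The 9 enzymes and the pathway lists were chosen with earlier results of these data known. Named genes were the enzymes, up to 4 genes per list and time by smallest adjusted p, the compartment counterparts of the enzymes, and the 3 named genes most like each enzyme. Some genes this rule names are not reported here, but stay in the counts and medians of their lists. Pathway genes on the array but too dim to test were Asrgl1, Arg1, Arg2, Mat1a, Bhmt, Bhmt2, Pck1 and Pklr. The scripts were tested on simulated data. Alternatives covered background correction, scaling, the dim-probe filter, probe choice, slide, array block, replicate block, the samples in the fit, and each sample left out.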

Additional observations from a re-analysis of the deposited data

Results flagged for a closer look

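In 40 sets of 4 values (8 genes in 5 groups), 2 had a sample far from the other 3, which is the number that a rate of about 1 in 20 would give. Both concern Aldh18a1. Its 6 h value was 11.60 in Cy5 sample 1 on slide 1, against 12.05 for the nearest of the other 3, so that the gap made up 0.922 of the group's range. At 48 h Cy5 sample 1 stood high at 12.07, against 11.86 for the nearest, a gap of 0.851 of the range. The rise of Aldh18a1 was called without either sample.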

How the results depend on the processing

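The rises of Asns, Aldh18a1, Gpt2, Got1, Pck2 and Cth against the control kept their sign in all 342 values from 15 alternatives and in all 192 values with 1 sample left out. They were called in 334 and 189 of these. The exceptions were all 6 genes at 6 h on slide 1 alone, where 0 enzymes were called, and Aldh18a1 at 24 h with loess and no scaling between arrays (adjusted p = 0.0577), without array 7 (0.149) and without 3 single samples named above. With 1 sample left out, 6 to 7 enzymes were called at 6 h, 5 to 6 at 24 h, 6 to 8 at 48 h and 6 to 7 at 72 h against the control. Between 24 h and 6 h it was 0 to 5, between 48 h and 24 h 2 to 3, and between 72 h and 48 h 0 to 0. Prodh and Cbs at 48 h were the only calls against the control lost with no dim-probe filter (adjusted p = 0.0755 and 0.0571) and with no array block (0.0688 and 0.0745). Cbs also lost it without background subtraction (0.0597) and without array 7 (0.116), and Prodh with only the 2 groups compared (0.249). Between 24 h and 6 h, where 1 enzyme was called, other fits called 0 (loess with no scaling between arrays), 2 (quantile scaling, the authors' matrix, a filter of 10 samples, no array block), 3 (no slide term, without array 7) and 6 (slide 2 only, only the 2 groups compared). Between 48 h and 24 h, where 2 were called, it was 0 with loess and no scaling and 6 on slide 2. Between 72 h and 48 h, where 0 were called, it was 1 with a filter of 10 samples or no array block, and 2 on slide 2 or with only the 2 groups compared. For the slide by 6 h interaction 1 was called with quantile scaling and 1 with the mean over probes. Signs turned only for changes that were not called: Pck2 between 72 h and 48 h (0.0045 with loess and no scaling), Cbs at 6 h (-0.055 on slide 2) and Prodh at 24 h (0.038 without array 7). With 1 sample left out, Cbs at 6 h ranged over -0.011 to 0.062, Prodh at 24 h over -0.068 to 0.041, Cth between 24 h and 6 h over -0.17 to 0.041, and, between 72 h and 48 h, Aldh18a1 over -0.0076 to 0.097, Pck2 over -0.056 to 0.013 and Prodh over -0.044 to 0.020. The cause of these shifts was not tested.

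Samples with the same number and dye did not deviate together (r = -0.620 to 0.198 over 40 pairs). Samples of different dyes were not compared, so this does not exclude cultures shared by number. A replicate block gave 7 enzymes up at 6 h, with Prodh at 0.17 (adjusted p = 0.0241), 2 down between 24 h and 6 h, and 3 up between 48 h and 24 h. Counts over all genes that moved by more than 1.5 times were those with loess and no scaling (24 h against control 6108 in place of 9757, 24 h against 6 h 4436 in place of 7956, 48 h against 24 h 333 in place of 2924, 72 h against 48 h 1782 in place of 5607), with no slide term (877 and 2727 for these last 2 steps), at 6 h (21 on slide 1 and 2747 with only the 2 groups compared, in place of 6014) and between 48 h and 24 h without 24 h Cy5 sample 2 (1773).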
